A study of Homo sapiens with 12 samples.

Results

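The genes described here encode the proteasome, its assembly factors and its activators. They were chosen by symbol: PSMA, PSMB, PSMC, PSMD, PSME, PSMF or PSMG followed by a number, without the interferon-inducible subunits PSMB8 and PSMB9 and without pseudogenes. This gives 46 human genes, of which 42 had a named probe on the array and 39 were tested among 13293 genes. A probe was tested when its detection p-value was below 0.05 on at least 3 of the 12 arrays, and all 39 members were detected on all 12. PSMA7, PSMC5, PSMD7 and PSMD13 had no named probe, and PSMA8, PSMB11 and the inhibitor gene PSMF1 had a probe that did not pass the detection filter. Each tested member was read from its brightest probe.

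Total RNA was profiled on Illumina bead arrays from human urothelial (bladder) cancer cell lines in 4 groups of 3 arrays: UM-UC9 cells given rosiglitazone at 1 µM for 24 hours, control UM-UC9 cells without the drug, UM-UC14 cells carrying a short hairpin RNA (shRNA) against FABP4, and UM-UC14 cells carrying a non-targeting shRNA. All cells grew in serum-containing medium, and both UM-UC14 groups carried an shRNA, which the labels of the UM-UC9 groups do not name. FABP4 is a fatty acid carrier and a target gene of PPARG, the nuclear receptor that rosiglitazone activates. The study asked what changes in expression when FABP4 is modulated in these cells. Whether the 3 arrays of a group were separate cultures, and whether the UM-UC14 cells were clones or pools, was not stated in the labels. What the p-values measure is thus the spread between arrays, which may be technical.

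The proteasome is the protease that breaks down proteins tagged with ubiquitin. Its core particle is a barrel of stacked rings. The outer rings are built from alpha subunits (PSMA genes) and gate the entry, and the inner rings are built from beta subunits (PSMB genes), among which PSMB5, PSMB6 and PSMB7 carry the cutting sites. The regulatory particle caps the barrel: a ring of ATPases (PSMC genes) unfolds the substrate, and non-ATPase subunits (PSMD genes) bind and remove ubiquitin. Dedicated chaperones help to build the core (PSMG1 to PSMG4) and the ATPase ring (PSMD5, PSMD9 and PSMD10), and alternative caps (PSME1 to PSME4) open the core without ubiquitin.

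The bases before the gene start are shown for 6 members, because PSME3, PSMD9 and PSMD5 moved in opposite directions under the drug and the shRNA, while PSMB10, PSME2 and PSMG4 share a 10-base word, and PSMB10 rose and PSMG4 fell with the drug and PSME2 rose with the shRNA. Each sequence is the 250 bases before the annotated gene start, 5′ to 3′ on the gene's strand, taken from RefSeq (GRCh38.p14). Capitals mark matches, on either strand, to 4 motifs: TGACNNNGC, the core of the antioxidant response element, CCAAT, the NF-Y box, the core of the interferon-stimulated response element, which is GAAA, any 2 bases and GAAA, and TTCNNNGAA, the gamma-activated site. The windows are chr17:42833147-42833396 (plus strand) for PSME3, chr12:121888540-121888789 (plus strand) for PSMD9, chr9:120842923-120843172 (minus strand) for PSMD5, chr16:67936851-67937100 (minus strand) for PSMB10, chr14:24146611-24146860 (minus strand) for PSME2 and chr6:3258697-3258946 (plus strand) for PSMG4.
PSME3: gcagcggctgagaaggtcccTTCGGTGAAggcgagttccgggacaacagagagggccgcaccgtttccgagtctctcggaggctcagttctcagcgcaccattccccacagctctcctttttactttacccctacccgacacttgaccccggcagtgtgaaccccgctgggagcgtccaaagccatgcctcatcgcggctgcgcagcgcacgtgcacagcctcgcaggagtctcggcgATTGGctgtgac
PSMD9: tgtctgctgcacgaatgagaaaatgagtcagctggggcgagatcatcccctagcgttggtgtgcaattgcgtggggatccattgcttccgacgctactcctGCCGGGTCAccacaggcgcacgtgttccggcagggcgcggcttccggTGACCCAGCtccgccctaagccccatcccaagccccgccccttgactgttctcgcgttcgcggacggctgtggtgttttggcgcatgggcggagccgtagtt
PSMD5: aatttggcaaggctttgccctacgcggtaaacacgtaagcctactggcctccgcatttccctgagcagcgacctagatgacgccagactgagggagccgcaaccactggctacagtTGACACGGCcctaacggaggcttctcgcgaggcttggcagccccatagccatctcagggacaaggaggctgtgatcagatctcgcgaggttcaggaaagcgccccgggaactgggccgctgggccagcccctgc
PSMB10: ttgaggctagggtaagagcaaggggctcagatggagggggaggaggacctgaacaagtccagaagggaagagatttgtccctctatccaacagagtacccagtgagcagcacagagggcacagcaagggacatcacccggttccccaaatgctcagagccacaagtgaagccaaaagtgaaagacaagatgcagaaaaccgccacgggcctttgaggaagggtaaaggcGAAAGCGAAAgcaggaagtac
PSME2: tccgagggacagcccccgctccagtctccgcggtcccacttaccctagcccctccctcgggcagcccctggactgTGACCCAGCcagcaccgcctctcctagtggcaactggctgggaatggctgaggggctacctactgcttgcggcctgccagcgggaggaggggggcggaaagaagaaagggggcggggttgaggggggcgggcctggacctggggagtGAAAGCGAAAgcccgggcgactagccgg
PSMG4: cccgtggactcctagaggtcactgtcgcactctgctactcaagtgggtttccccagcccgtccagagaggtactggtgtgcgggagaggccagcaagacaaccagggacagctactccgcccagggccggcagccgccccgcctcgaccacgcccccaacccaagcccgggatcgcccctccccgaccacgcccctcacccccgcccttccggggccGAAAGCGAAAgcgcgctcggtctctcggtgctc
The word GAAAGCGAAA stood in the windows of PSMB10 (bases 21 to 12 before the start), PSME2 (28 to 19) and PSMG4 (33 to 24).

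Of the 39 tested members 34 had a window in the RefSeq table. PSMB1, PSMB6, PSMB7, PSMD4 and PSMG3 were not matched. TGACNNNGC occurred in 10 of the 34 (29.4%), against 11.0% of 27305 promoters. CCAAT occurred in 14 (41.2%, against 33.0%), the interferon-stimulated core in 5 (14.7%, against 3.07%) and TTCNNNGAA in 4 (11.8%, against 6.78%). Among the 15 matched members that rose with FABP4 shRNA, 3 held TGACNNNGC (20.0%), against 7 of the 19 that were not called (36.8%). These counts describe letters in a window and are not binding sites. The 27305 promoters are those of all genes in the table and were not matched to the members for brightness or base content. Whether the members hold more matches than like genes was not tested.

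The arrays detected 20892 to 22407 of their 47323 probes. Arrays of a group correlated at r of 0.995 to 0.997 in the 3 other groups and at 0.984 to 0.993 among the non-targeting arrays. FABP4 had log2 intensities of 14.60, 14.71 and 14.65 with rosiglitazone, against 11.06, 11.01 and 10.82 in control UM-UC9. It had 10.35, 10.12 and 10.50 with FABP4 shRNA, against 13.93, 14.13 and 14.06 with non-targeting shRNA, so the targeted gene followed its labels on every array. Of 14 epithelial and urothelial markers, 10 were detected on all 12 arrays, including EPCAM and the keratin gene KRT19. UPK3A was detected on 0 arrays and TP63 had no named probe. Of 6 fibroblast markers 1, LUM, was detected on all arrays and 2, COL3A1 and PDGFRB, on 0. Of 7 blood and endothelial markers 2, CD68 and PECAM1, were detected on all arrays and 3, PTPRC, CD3E and VWF, on 0.

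These markers also moved between the groups. Of 3 tested blood and endothelial markers, 2 were lower with FABP4 shRNA, CD68 (-0.88) and CDH5 (-1.70), and 2 were higher with rosiglitazone, CD68 (1.15) and PECAM1 (0.53). Of 4 tested fibroblast markers, 2 were higher with the shRNA, COL1A1 (0.90) and LUM (0.65), and 1 with the drug, LUM (0.75). Of 12 tested epithelial and urothelial markers, 2 were higher and 5 lower with the shRNA, and 5 higher and 1 lower with the drug. The summed linear intensity of the blood and endothelial markers was 2120 to 2400 with FABP4 shRNA, against 3270 to 4460 with non-targeting shRNA, and 1520 to 1850 with rosiglitazone, against 814 to 916 in control UM-UC9. For the fibroblast markers it was 705 to 750 with FABP4 shRNA, against 387 to 557 with non-targeting shRNA, and 284 to 303 with rosiglitazone, against 226 to 251 in controls. The epithelial sums were 54000 to 59100 with FABP4 shRNA, against 53600 to 59000 with non-targeting shRNA, and 65000 to 65600 with rosiglitazone, against 52200 to 54400 in controls. In UM-UC14 the blood and endothelial sum mostly followed CD68, with means of 11.00 with FABP4 shRNA and 11.88 with non-targeting shRNA. PECAM1 had a positive change of 0.28 with the shRNA and was not called (adjusted p = 0.1). The fibroblast sum in UM-UC14 mostly followed LUM, with means of 9.11 and 8.46, and COL1A2 and DCN were detected on 0 arrays there. The part of these markers in the proteasome results was not tested.

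The members are bright genes. Their mean log2 intensity over all arrays ran from 6.90 (PSMD9) to 13.54 (PSMA6) with a median of 11.92, against a median of 7.72 over all tested genes, and 32 of the 39 lay above 10, against 18.9% of all genes. RefSeq lists 47 pseudogenes of 19 tested members, and signal from such copies cannot be told apart from that of the gene. In bulk RNA, a change in the number of cells that express a gene cannot be told apart from a change per cell.

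With FABP4 shRNA in UM-UC14, proteasome genes rose in the core, the regulatory particle, the assembly factors and the activators, and none fell. Of 39 members, 17 rose (43.6%) and 0 fell, where 14.2% of all 13293 genes rose and 12.2% fell at an adjusted p below 0.05 (26.3% together). The 3 arrays against 3 did not overlap for 21 members that were higher and 1 that was lower, against 20.1% and 16.4% of all genes (36.5% together). The fitted change was positive in 34 of 39. Of all calls 53.8% were rises, and 70.0% with median scaling, which moved the median of all genes to 0.10. The median log2 fold change was 0.29, a fold of 1.22, against 0.02 over all genes. Among the 2506 genes with a mean log2 intensity above 10, a background added after the data had been seen, 17.9% rose, against 13 of the 32 members that bright (40.6%).

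**Figure D1:**
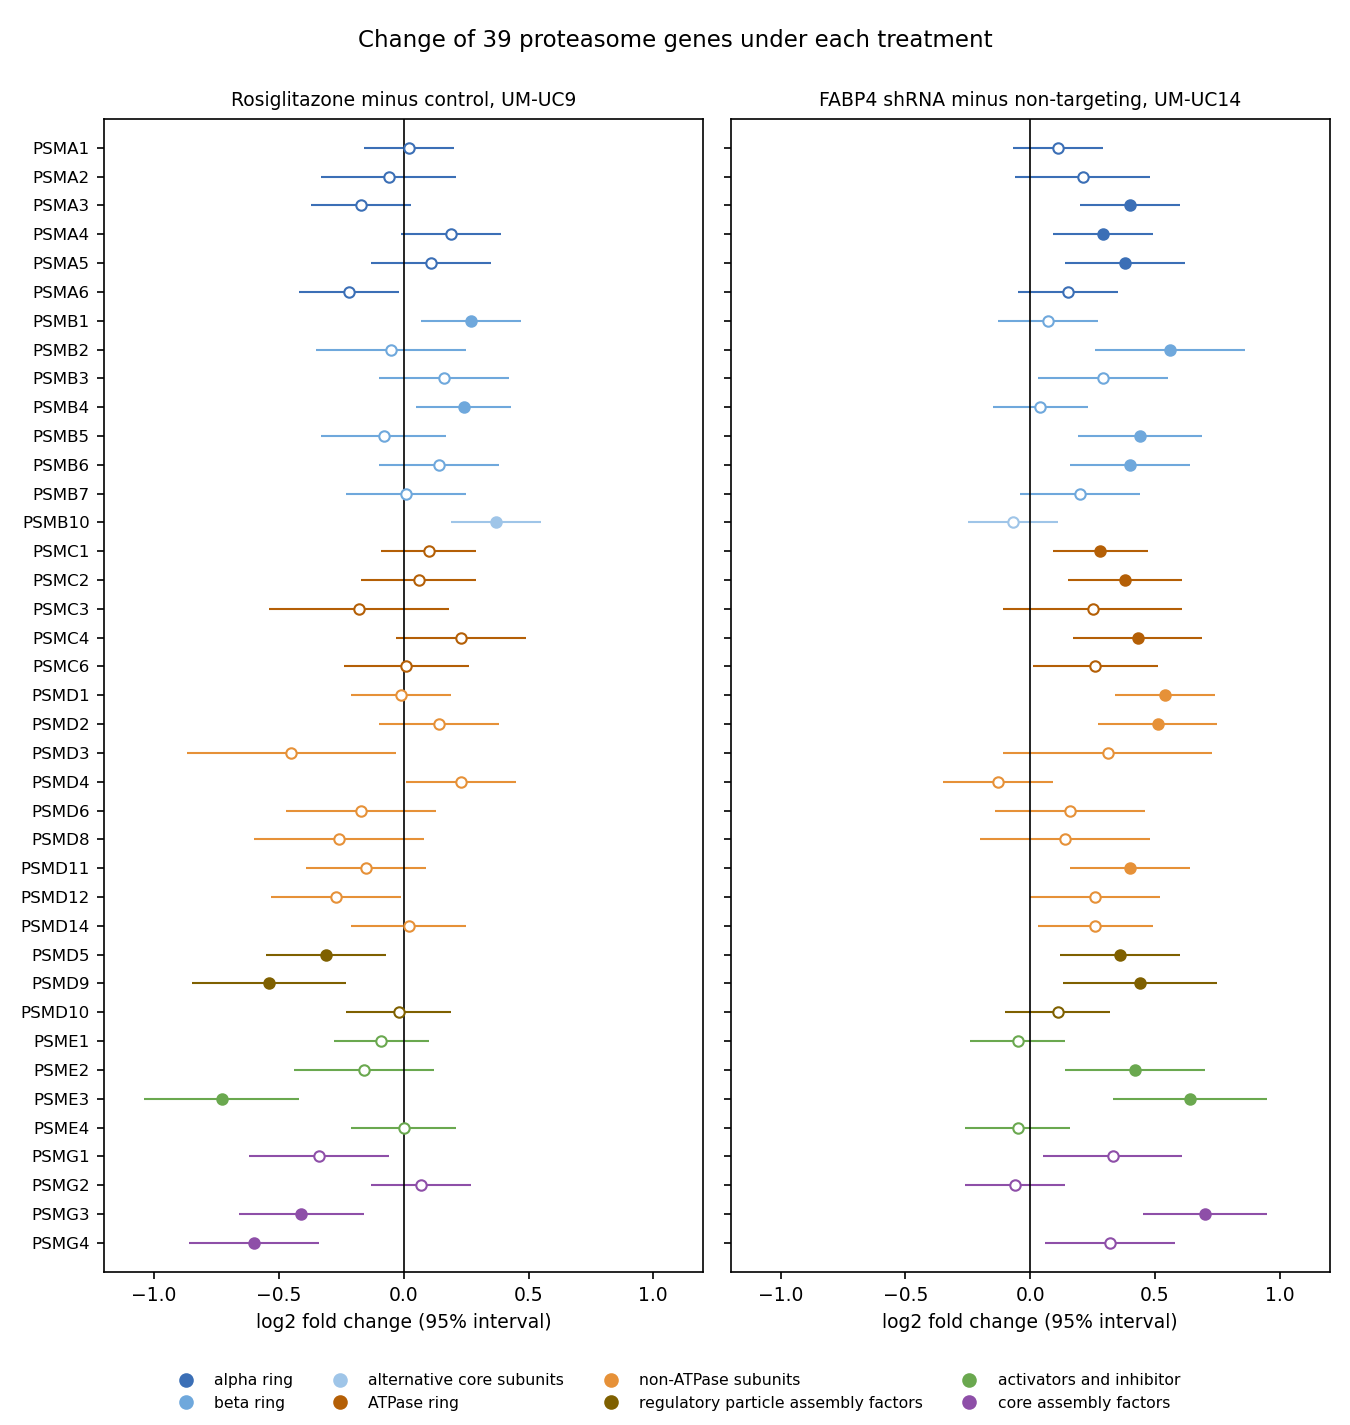
Log2 fold change of each of the 39 tested members, by class, under rosiglitazone in UM-UC9 (left panel) and FABP4 shRNA in UM-UC14 (right panel). Bars are 95% intervals without adjustment, filled points passed an adjusted p below 0.05 and open points did not: 3 filled points lie above 0 and 5 below in the left panel, and 17 above 0 and 0 below in the right.

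The control arrays of this comparison were not alike. Measured from the mean of the 3 non-targeting arrays, the median deviation of the 39 members was 0.29, 0.29 and 0.32 on the FABP4 shRNA arrays, against 0.20, -0.05 and -0.13 on non-targeting replicates 1, 2 and 3. Over all genes these medians lay between 0.00 and 0.02. Non-targeting replicate 1 thus stood between the other controls and the shRNA arrays. It was the highest of the 3 controls for 33 of 39 members (84.6%), against 40.5% of all genes, and lay nearer to the mean of the shRNA arrays than to that of the other controls for 27 (69.2%), against 55.4%. Without it, 26 members rose (66.7%, against 21.2% of all genes) and 0 fell, with a median of 0.44. With it as the only control, 2 members rose (5.13%, against 7.01% of all genes), PSMD1 and PSMG3, and 1 fell, PSMD4. In that fit 27 of 39 changes were positive, the median was 0.11, and its single control array takes its spread from the other groups. Without non-targeting replicate 2 there were 8 rises (20.5%, against 9.31% of all genes), and without replicate 3 there were 7 (17.9%, against 11.1%). Leaving out 1 UM-UC14 array at a time, in 6 fits, lost the call of PSME2 in 5 and those of PSMB6 and PSMD9 in 4 each. The tests pooled each gene's spread over all 4 groups, while the non-targeting arrays correlated least within their group (r of 0.984 to 0.993). The adjusted p-values thus do not measure the spread of the UM-UC14 arrays alone. Fitted on the UM-UC14 arrays only, 5 members rose, and calls over all genes went from 3502 to 1776, of which 50.3% were rises.

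**Figure D2:**
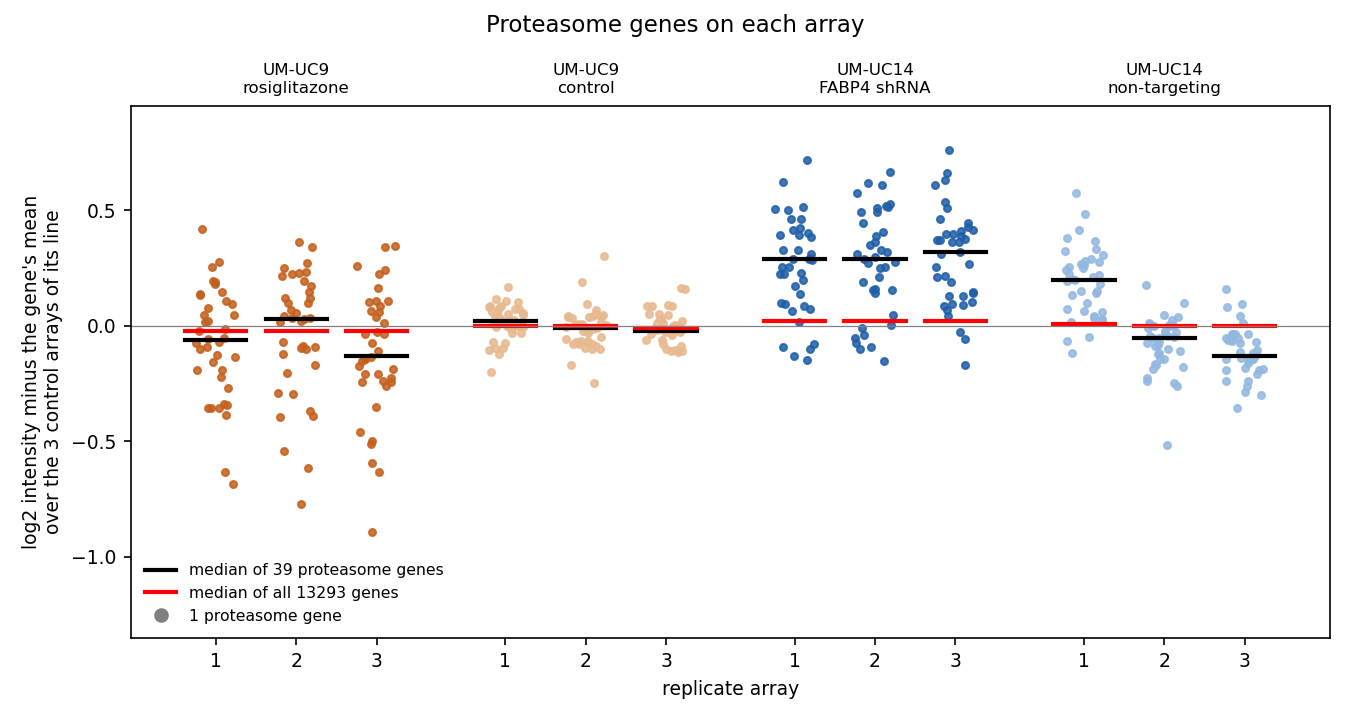
Log2 intensity of each of the 39 members on each of the 12 arrays, as the deviation from the gene's mean over the 3 control arrays of its cell line. Black bars are medians over the members and red bars medians over all 13293 genes: the black bars lie at 0.29 to 0.32 on the FABP4 shRNA arrays, at 0.20 on non-targeting replicate 1 and at -0.05 and -0.13 on replicates 2 and 3.

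In the alpha ring 3 of 6 tested genes rose with FABP4 shRNA: PSMA3 (0.40, adjusted p = 0.0067), PSMA5 (0.38, adjusted p = 0.024) and PSMA4 (0.29, adjusted p = 0.034). PSMA2, PSMA6 and PSMA1 had log2 fold changes of 0.21, 0.15 and 0.11 and were not called. In the beta ring 3 of 7 rose: PSMB2, PSMB5 and PSMB6.

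PSMB2, a beta subunit without a cutting site, had the largest change of the core particle, with 12.09, 12.23 and 12.23 on the FABP4 shRNA arrays, against 12.00, 11.38 and 11.49 on the non-targeting arrays, a log2 change of 0.56 (SE 0.14, adjusted p = 0.0096). PSMB5, which cuts after hydrophobic residues and is the main target of proteasome inhibitor drugs, had 12.38, 12.46 and 12.37 with FABP4 shRNA, against 12.23, 11.88 and 11.78 with non-targeting shRNA, a log2 change of 0.44 (SE 0.11, adjusted p = 0.013). For both genes the groups did not overlap, and non-targeting replicate 1 was the control nearest to the shRNA arrays. PSMB6, which cuts after acidic residues, had 12.97, 12.86 and 12.99, against 12.80, 12.43 and 12.41, a log2 change of 0.40 (SE 0.11, adjusted p = 0.018). PSMB7, which cuts after basic residues, had 12.50, 12.32 and 12.59, against 12.48, 12.11 and 12.24, a log2 fold change of 0.20 ± 0.24 (95% interval) that was not called (adjusted p = 0.21). Its non-targeting replicate 1 lay inside the range of the shRNA arrays. The other beta genes PSMB3, PSMB1 and PSMB4 had log2 fold changes of 0.29, 0.07 and 0.04 and were not called.

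In the ATPase ring, which unfolds substrates, 3 of 5 genes rose: PSMC4 (0.43, adjusted p = 0.018), PSMC2 (0.38, adjusted p = 0.018) and PSMC1 (0.28, adjusted p = 0.037). PSMC6 and PSMC3 had 0.26 and 0.25. Among the non-ATPase subunits 3 of 9 rose: PSMD1, PSMD2 and PSMD11. PSMD1, a large scaffold subunit, had 11.15, 11.22 and 11.18 with FABP4 shRNA, against 10.80, 10.56 and 10.57 with non-targeting shRNA, a log2 change of 0.54 (SE 0.09, adjusted p = 0.0014). PSMD2, the other large scaffold subunit, had 11.53, 11.54 and 11.53, against 11.23, 11.07 and 10.76, a log2 change of 0.51 (SE 0.11, adjusted p = 0.0045). In both the shRNA arrays lay close together above all 3 controls. PSMD11, a subunit of the lid, had a log2 fold change of 0.40 (adjusted p = 0.017).

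PSMD14, the enzyme that removes ubiquitin from the substrate, had 12.05, 12.15 and 12.04 with FABP4 shRNA, against 11.96, 11.83 and 11.68 with non-targeting shRNA. The groups did not overlap, but the log2 fold change of 0.26 ± 0.23 (95% interval) was not called (adjusted p = 0.092). PSMD4, a ubiquitin receptor, had 11.45, 11.38 and 11.36, against 11.76, 11.41 and 11.43, a log2 fold change of -0.13 (adjusted p = 0.38). It was the 1 regulatory particle gene with a negative change, and non-targeting replicate 1 was its highest array. Its other probes had 0.02 and -0.17. PSMD3, PSMD12, PSMD6 and PSMD8 had 0.31, 0.26, 0.16 and 0.14 and were not called.

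The largest change with FABP4 shRNA was that of an assembly factor. PSMG3, a chaperone of the alpha ring, had 8.35, 8.25 and 8.39 with FABP4 shRNA, against 7.92, 7.58 and 7.40 with non-targeting shRNA, a log2 change of 0.70 (SE 0.12, adjusted p = 0.001), or 1.62-fold. It remained called with non-targeting replicate 1 as sole control, at 0.41 (adjusted p = 0.021). PSMG1, which acts with PSMG2 on the alpha ring, had 12.21, 12.23 and 12.30, against 12.20, 11.93 and 11.63, a log2 fold change of 0.33 (adjusted p = 0.08). Non-targeting replicate 1 lay just below its lowest shRNA array. The core chaperone PSMG4 had 10.67, 10.44 and 10.71, against 10.57, 10.14 and 10.14, overlapping groups with a log2 fold change of 0.32 (adjusted p = 0.064), and PSMG2 had -0.06 (adjusted p = 0.71). Of the chaperones of the ATPase ring, PSMD9 (7.14, 7.02 and 7.41 with FABP4 shRNA, against 6.99, 6.74 and 6.50, 0.44 (adjusted p = 0.036)) and PSMD5 (0.36, adjusted p = 0.027) rose, and PSMD10, also known as the oncoprotein gankyrin, had 0.11 (adjusted p = 0.44).

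Among the activators, PSME3 and PSME2 rose. PSME3, which forms the nuclear activator ring, had 10.33, 10.37 and 10.33 with FABP4 shRNA, against 10.12, 9.48 and 9.51 with non-targeting shRNA, a log2 change of 0.64 (SE 0.14, adjusted p = 0.0061). Its shRNA arrays lay close together, while non-targeting replicate 1 stood apart above the other controls. PSME2, the beta chain of the interferon-inducible activator, had 12.27, 12.27 and 12.33, against 12.23, 11.63 and 11.74, a log2 change of 0.42 (SE 0.13, adjusted p = 0.028). PSME1, its alpha chain partner, had 12.58, 12.66 and 12.75, against 12.77, 12.71 and 12.65, overlapping groups with a log2 fold change of -0.05 (adjusted p = 0.74). PSME4, the activator of nuclear and sperm proteasomes, had 11.27, 11.33 and 11.34, against 11.24, 11.54 and 11.30, a log2 fold change of -0.05 (adjusted p = 0.74). PSMB10, the interferon-inducible replacement for PSMB7, had 11.70, 11.72 and 11.74, against 11.82, 11.79 and 11.76. The shRNA arrays of PSMB10 all lay below the controls, by a log2 fold change of -0.07 ± 0.18 (95% interval) that was not called (adjusted p = 0.55).

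**Figure D3:**
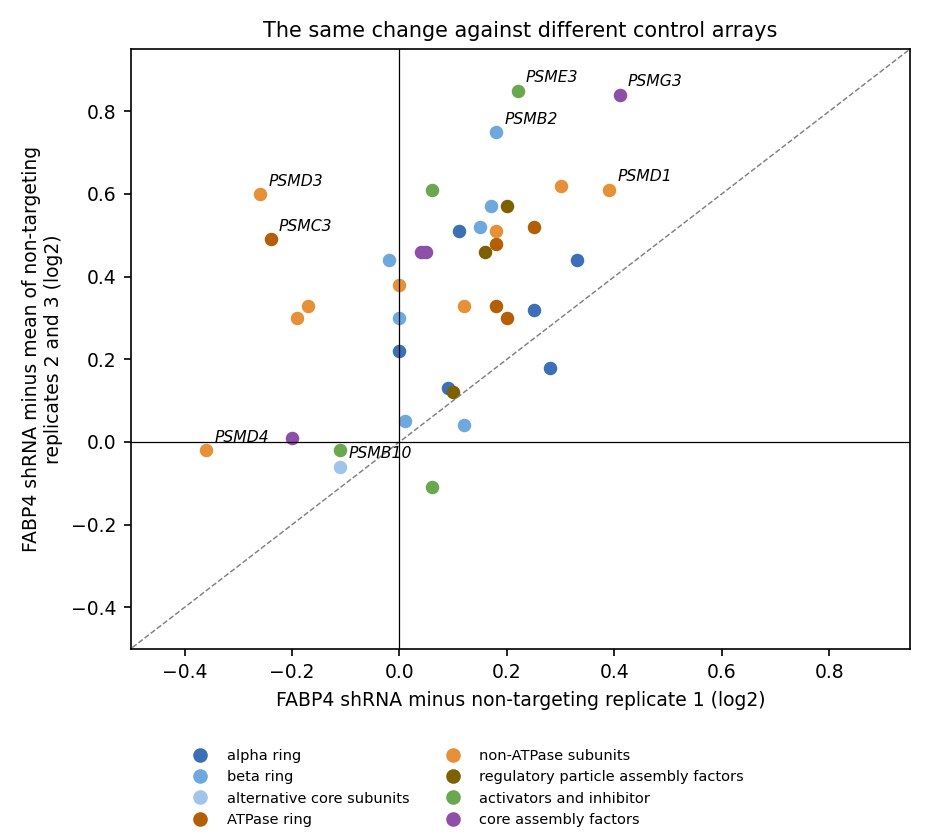
Log2 fold change of each of the 39 members with FABP4 shRNA, computed against non-targeting replicate 1 alone (horizontal axis) and against the mean of non-targeting replicates 2 and 3 (vertical axis), with the line of equality dashed. Most points lie above the line, with medians of 0.11 and 0.44, and PSMG3 stands farthest to the right at 0.41.

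Under rosiglitazone in UM-UC9 most proteasome genes did not pass the test. Of 39 members 3 rose, PSMB10, PSMB1 and PSMB4, and 5 fell, PSME3, PSMG4, PSMD9, PSMG3 and PSMD5. That is 7.69% and 12.8%, where 17% of all genes rose and 19% fell (36.0% together). The 3 arrays against 3 did not overlap for 8 members that were higher and 12 that were lower, against 25.2% and 28.7% of all genes (53.9% together). The median log2 fold change was -0.02 over the members and -0.02 over all genes. All 3 that rose encode core subunits, and all 5 that fell encode assembly factors or an activator. Of the 7 tested assembly factors chosen by symbol 4 fell and 0 rose, with a median of -0.34. The 3 others had -0.34, 0.07 and -0.02 (PSMG1, PSMG2 and PSMD10). Outside the symbol rule, PAAF1, which binds the ATPase ring during assembly, rose by 0.77 (adjusted p = 2.3e-05). The core chaperone POMP had -0.05 (adjusted p = 0.77).

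PSMB10 had 11.73, 11.66 and 11.66 with rosiglitazone, against 11.32, 11.23 and 11.40 in control UM-UC9, a log2 change of 0.37 (SE 0.08, adjusted p = 0.0035). PSMB1, a structural beta subunit, had 13.49, 13.58 and 13.66, against 13.41, 13.24 and 13.28, a log2 change of 0.27 (SE 0.09, adjusted p = 0.034). PSMB4, another structural beta subunit, had 12.47, 12.44 and 12.45, against 12.25, 12.21 and 12.18, a log2 change of 0.24 (SE 0.09, adjusted p = 0.045). In each of these the drug-treated arrays all lay above the controls. Of 6 fits that each left out 1 UM-UC9 array, the call was lost in 6 for PSMB4 (adjusted p from 0.075 to 0.12), in 4 for PSMB1 and in 0 for PSMB10. When arrays were scaled by their medians and not quantile-normalized, the changes were 0.31 for PSMB10 (adjusted p = 0.052), 0.24 for PSMB1 (adjusted p = 0.14) and 0.24 for PSMB4 (adjusted p = 0.14), so 0 members were called higher at changes of about the same size.

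The catalytic genes did not pass the test under the drug. PSMB5 had 12.59, 12.77 and 12.54 with rosiglitazone, against 12.72, 12.76 and 12.68 in controls, a log2 fold change of -0.08 ± 0.25 (95% interval). PSMB6 had 12.93, 12.95 and 12.75, against 12.79, 12.74 and 12.68, a log2 fold change of 0.14 ± 0.24 (95% interval), and PSMB7 had a change of 0.01 ± 0.24 (95% interval) on arrays of 12.55, 12.65 and 12.68, against 12.69, 12.52 and 12.65. None was called (adjusted p = 0.63, 0.36 and 0.97). PSMB2, which had the largest core change with FABP4 shRNA, had 12.79, 12.82 and 12.66 with the drug, against 12.70, 12.85 and 12.85, a log2 fold change of -0.05 (adjusted p = 0.84). The alpha genes ran from -0.22 (PSMA6) to 0.19 (PSMA4) on their brightest probes, and none was called. In the fit of all kept probes, a dim PSMA1 probe detected on 8 arrays had 0.58 (adjusted p = 0.006) and a second PSMA6 probe detected on all 12 had -0.27 (adjusted p = 0.045).

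Of the 14 regulatory particle genes 0 were called under the drug by limma, against 36.0% of all genes. An unadjusted p below 0.05 was reached by 3 of the 14, against 5977 of all 13293 genes. The log2 fold changes of these 14 genes ran from -0.45 (PSMD3) to 0.23 (PSMC4 and PSMD4). PSMD4 had 11.56, 11.62 and 11.63 with rosiglitazone, against 11.30, 11.35 and 11.46, groups that did not overlap, with an adjusted p of 0.092. PSMD14 had 11.73, 12.02 and 11.68, against 11.81, 11.78 and 11.77, a log2 fold change of 0.02 (adjusted p = 0.9). PSMD1 had 11.52, 11.46 and 11.30, against 11.47, 11.45 and 11.41, a log2 fold change of -0.01 (adjusted p = 0.93), and PSMD2 had 12.59, 12.72 and 12.60, against 12.48, 12.48 and 12.52, 0.14 (adjusted p = 0.34). Only the PSMD4 and PSMD2 groups of these 4 were separate.

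PSME3 fell most, with 9.68, 9.75 and 9.47 on the rosiglitazone arrays, against 10.37, 10.35 and 10.38 in controls, a log2 change of -0.73 (SE 0.14, adjusted p = 0.0016), or 1.66-fold lower. Its second probe had -0.62. PSMG4, a small core chaperone, had 10.91, 11.00 and 10.91, against 11.52, 11.48 and 11.64, a log2 change of -0.60 (SE 0.12, adjusted p = 0.0017). A dim second probe of PSMG4, detected on 3 arrays, had 0.22. Both genes had all drug-treated arrays below all controls. The remaining ones that fell were smaller changes. PSMD9 had 6.76, 6.34 and 6.62, against 7.23, 7.06 and 7.05, a log2 change of -0.54 (SE 0.14, adjusted p = 0.0099). PSMG3 had 8.21, 8.20 and 8.13, against 8.56, 8.63 and 8.58, a log2 change of -0.41 (SE 0.12, adjusted p = 0.014). PSMD5 had 7.51, 7.48 and 7.64, against 7.91, 7.89 and 7.75, a log2 change of -0.31 (SE 0.11, adjusted p = 0.043). Their groups did not overlap. Each of 6 fits that left out 1 UM-UC9 array called 4 members lower. The call of PSMG3 was lost in 1 and those of PSME3, PSMG4 and PSMD9 in 0, so PSMD5 lost its call in most. PSMG1 also lay lower on every drug-treated array, at 11.14, 11.07 and 10.85, against 11.44, 11.26 and 11.37, but its log2 fold change of -0.34 was not called (adjusted p = 0.055), while a second PSMG1 probe had -0.41 (adjusted p = 0.039 in the fit of all kept probes).

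The other activator genes were not called under the drug. PSME1 had 12.22, 12.22 and 12.24 with rosiglitazone, against 12.40, 12.24 and 12.32 in controls, a change of -0.09 ± 0.19 (95% interval). A second, dimmer PSME1 probe, detected on all 12 arrays, went the other way at 0.43 (adjusted p = 0.0075 in the fit of all kept probes). PSME2 had 11.68, 11.78 and 11.68, against 11.88, 11.94 and 11.79, a change of -0.16 ± 0.28 (95% interval). PSME4 had 10.67, 10.72 and 10.49, against 10.67, 10.59 and 10.60, a change of 0.00 ± 0.21 (95% interval). The PSME2 groups did not overlap and the other two pairs did.

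**Figure D4:**
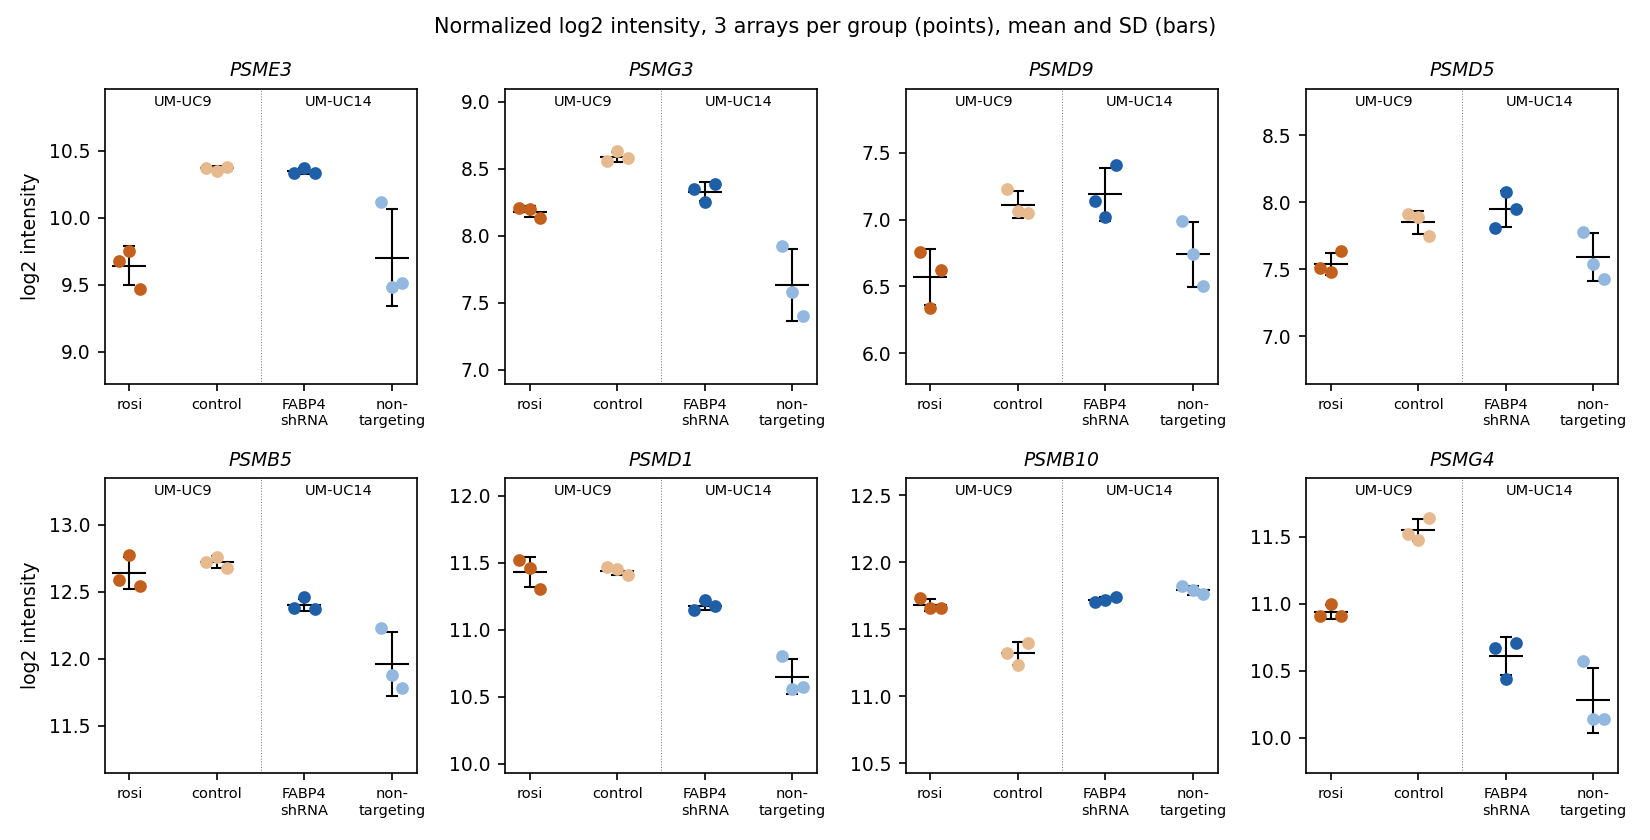
Normalized log2 intensity of 8 members on each array (points), with the mean and SD of 3 arrays per group (bars); each panel spans the same number of log2 units. PSME3, PSMG3, PSMD9 and PSMD5 were lower with rosiglitazone than in control UM-UC9 and higher with FABP4 shRNA than with non-targeting shRNA, while PSMB5 and PSMD1 changed only in UM-UC14 by the test, and PSMB10 and PSMG4 only in UM-UC9.

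PSME3, PSMG3, PSMD9 and PSMD5 fell with the drug, which raised FABP4, and rose with the shRNA, which lowered it. These are 4 of 39 members (10.3%), against 660 of all genes (4.97%). The reverse, a rise with the drug and a fall with the shRNA, held for 0 members and 530 of all genes (3.99%). In the same direction in both, 0 members were called, against 181 of all genes higher (1.36%) and 176 lower (1.32%). Against non-targeting replicate 1 alone, the shRNA changes of PSME3, PSMG3, PSMD9 and PSMD5 were 0.22, 0.41, 0.20 and 0.16. With all controls they were 0.64, 0.70, 0.44 and 0.36. Leaving out 1 UM-UC14 array at a time, in 6 fits, lost the shRNA call of PSMD9 in 4 and those of PSME3 and PSMG3 in 0. The drug call of PSMD5 was lost in most fits that left out 1 UM-UC9 array. The 2 comparisons share no arrays. Tested directly, as rosiglitazone change minus FABP4 shRNA change, the responses differed for 16 members, 15 lower (38.5%) and 1 higher, where 22.4% of all genes were lower and 19.1% higher (41.5% together). The largest differences were those of PSME3 (-1.37, SE 0.20, adjusted p = 2e-04), PSMG3 (-1.11, SE 0.16, adjusted p = 2e-04), PSMD9 (-0.99, SE 0.20, adjusted p = 0.0019) and PSMG4 (-0.93, SE 0.17, adjusted p = 0.00091). PSMB10 was the 1 member whose difference was positive and called (0.44, SE 0.12, adjusted p = 0.0082). PSMB5 (-0.52, adjusted p = 0.02) and PSMD1 (-0.55, adjusted p = 0.0051) also differed, while PSMB6 (-0.26, adjusted p = 0.21), PSMB7 (-0.19, adjusted p = 0.36) and PSMD14 (-0.24, adjusted p = 0.23) were not called. Cell line, agent and direction of FABP4 all change together between these responses and cannot be told apart. Of all calls 46.0% were higher, and 33.1% with median scaling, which moved the median of all genes to -0.15. With non-targeting replicate 1 as the only UM-UC14 control, the median difference was -0.06 for the core and -0.11 for the regulatory particle. With all controls these medians were -0.26 and -0.35.

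Core and regulatory particle genes were called in like shares with FABP4 shRNA, and the difference between the particles was not tested. Of 13 tested core ring genes (PSMA1 to PSMA6 and PSMB1 to PSMB7) 6 rose (46.2%) with a median change of 0.29, and of 14 regulatory particle genes 6 rose (42.9%), with a median of 0.27. All 13 core changes and 13 of 14 regulatory particle changes were positive. On the shRNA arrays the median deviation was 0.23, 0.27 and 0.37 for the core and 0.29, 0.31 and 0.26 for the regulatory particle. On the non-targeting arrays it was 0.15, -0.07 and -0.05 for the core and 0.21, -0.07 and -0.14 for the regulatory particle. Non-targeting replicate 1 was therefore the high control for both particles. With it as the only control the medians were 0.12 and 0.15, and 0 core genes and 2 regulatory particle genes were called, PSMD1 higher and PSMD4 lower.

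Under rosiglitazone 2 of 13 core genes rose (15.4%) and 0 fell, with a median of 0.02, and 0 of 14 regulatory particle genes were called, with a median of 0.00. Within the particles the beta ring had a median of 0.14 and the non-ATPase subunits -0.15, against -0.02 for the alpha ring and 0.06 for the ATPase ring. On the drug-treated arrays the core median deviation was 0.02, 0.12 and 0.01 and that of the regulatory particle -0.06, 0.03 and -0.13, against -0.03 to 0.04 and -0.01 to 0.01 on the controls. On each of the 3 drug-treated arrays the core median lay above that of the regulatory particle, and the difference was not tested.

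Between the controls of the cell lines, 26 of 39 members differed: 8 were higher (20.5%) and 18 lower (46.2%) in non-targeting UM-UC14 than in control UM-UC9. Together that is 66.7%, against 67.8% of all genes (33.2% higher and 34.6% lower), so the share is close to the background. The arrays of the lines did not overlap for 8 members that were higher and 16 that were lower, against 33.4% and 34.7% of all genes (68.1% together). A fold of at least 2 was reached by 4 members (10.3%), against 25.9% of all genes, and all 4 were lower in UM-UC14. The cell line and the shRNA vector cannot be told apart in this comparison.

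PSMD2 had the largest difference, with 11.23, 11.07 and 10.76 in UM-UC14 with non-targeting shRNA, against 12.48, 12.48 and 12.52 in control UM-UC9, a log2 change of -1.47 (SE 0.11, adjusted p = 3e-08), or 2.77-fold lower. PSMG4 had 10.57, 10.14 and 10.14, against 11.52, 11.48 and 11.64, a log2 change of -1.26 (SE 0.12, adjusted p = 4.6e-07). PSMB2 had 12.00, 11.38 and 11.49, against 12.70, 12.85 and 12.85, a log2 change of -1.18 (SE 0.14, adjusted p = 3.4e-06). In these every UM-UC14 array lay below every UM-UC9 array. PSMA2, an alpha subunit, had 8.29, 8.46 and 8.32, against 9.55, 9.21 and 9.38, a log2 change of -1.03 (SE 0.12, adjusted p = 5.3e-06). It was at 8.37, 8.57 and 8.77 with FABP4 shRNA and 9.40, 9.42 and 9.14 with rosiglitazone, so the lines stood apart in all 4 groups.

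The members higher in UM-UC14 were led by PSME4, with 11.24, 11.54 and 11.30 in UM-UC14 with non-targeting shRNA, against 10.67, 10.59 and 10.60 in control UM-UC9, a log2 change of 0.74 (SE 0.10, adjusted p = 1.4e-05). PSMG1 followed at 0.56 (SE 0.13, adjusted p = 0.0016), PSMB10 at 0.47 (SE 0.08, adjusted p = 0.00015) and PSME1 at 0.39 (SE 0.09, adjusted p = 0.0011). PSMB5 was lower in UM-UC14 (-0.75, SE 0.11, adjusted p = 4.4e-05), as was PSMB7 (-0.34, adjusted p = 0.014), while PSMB6 was not called (-0.19, adjusted p = 0.14). The alpha ring was split, with PSMA1, PSMA4 and PSMA6 higher (0.30, 0.31 and 0.30) and PSMA2, PSMA3 and PSMA5 lower (-1.03, -0.59 and -0.77). Of 13 core genes 11 differed, 3 higher and 8 lower, with a median of -0.34. Of 14 regulatory particle genes 5 were lower and 0 higher, with a median of -0.13. Median scaling shifted the median of all genes in this comparison to -0.15, from which the core (-0.59) and regulatory particle (-0.38) medians are to be read, and left 1 member higher. With non-targeting replicate 1 as the only UM-UC14 control the regulatory particle median was 0.06.

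**Figure D5:**
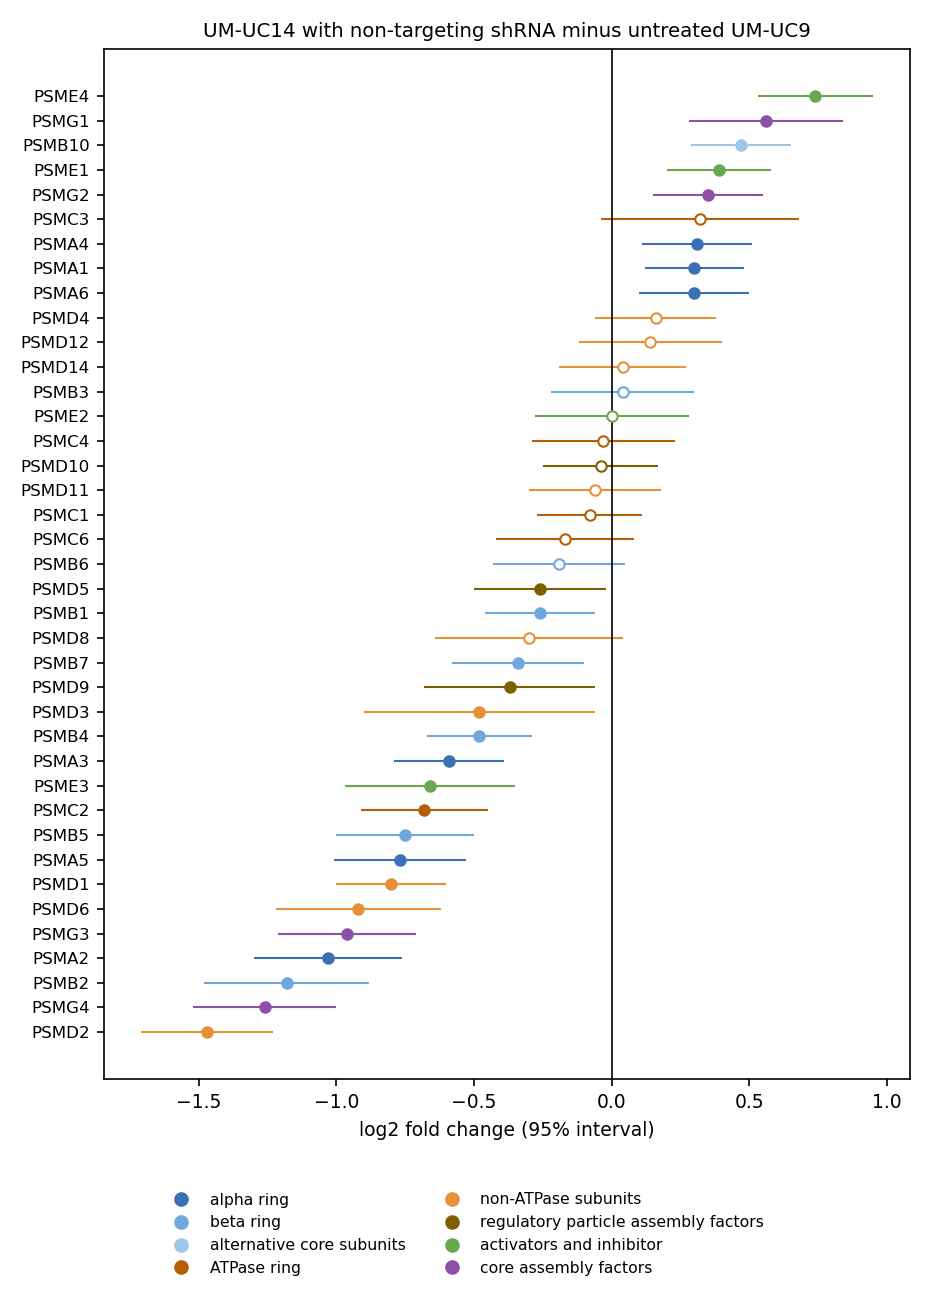
Log2 fold change of the 39 members in UM-UC14 with non-targeting shRNA relative to control UM-UC9, ordered by size and coloured by class. Bars are 95% intervals without adjustment and filled points passed an adjusted p below 0.05: PSMD2 lies lowest at -1.47 and PSME4 highest at 0.74.

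Genes that work beside the proteasome were read from lists. NPLOC4, UBA1, UBQLN1, NFE2L1 and DDI2 among them are named after their values were seen. Of 14 tested partners, 1 rose and 0 fell with FABP4 shRNA, and 1 rose and 2 fell with rosiglitazone. That is 7.14% higher with the shRNA, against 14.2% of all genes, and 7.14% higher and 14.3% lower with the drug, against 17% and 19%, so the partners lie at or below the background. POMP, the chaperone that finishes the core, rose with the shRNA at 12.98, 13.15 and 13.13, against 12.81, 12.56 and 12.46, a log2 change of 0.48 (SE 0.11, adjusted p = 0.0054). With the drug PAAF1, which binds the ATPase ring during assembly, rose by 0.77 (SE 0.09, adjusted p = 2.3e-05), while the deubiquitinase gene UCHL5 and the ubiquitin ligase gene UBE3C fell (-0.40 (adjusted p = 0.027) and -0.38 (adjusted p = 0.0043)). Of 11 tested genes for shuttles, the VCP segregase and ubiquitin supply, 5 rose (45.5%, against 14.2% of all genes) and 0 fell with FABP4 shRNA, UFD1 (0.46, adjusted p = 0.028), VCP (0.45, adjusted p = 0.038), NPLOC4, UBA1 and UBQLN1. UFD1 and NPLOC4 are the cofactors with which VCP extracts ubiquitin-tagged proteins. Non-targeting replicate 1 was the highest control for UFD1, VCP, NPLOC4 and UBA1, but not for UBQLN1. It had 6.52, 10.15 and 9.18 for UFD1, VCP and NPLOC4, against lowest shRNA arrays of 6.43, 10.18 and 9.23. The UFD1 groups thus overlapped. With the drug 0 of these 11 rose and 1 fell (9.09%, against 19% of all genes), the shuttle gene UBQLN4 (-0.58, SE 0.11, adjusted p = 0.0012).

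NFE2L1, the transcription factor known to raise proteasome genes when the proteasome is inhibited, had 9.58, 9.67 and 9.68 with FABP4 shRNA, against 10.60, 9.78 and 9.70 with non-targeting shRNA, and non-targeting replicate 1 was its highest array. Its log2 fold change of -0.38 was not called (adjusted p = 0.14). Of 6 tested genes of its axis 1 rose and 2 fell with the shRNA. Those are 16.7% and 33.3%, against 14.2% and 12.2% of all genes. The 1 called higher was DDI2, the protease that activates NFE2L1, whose probe was detected on 2 of 3 FABP4 shRNA arrays and 0 of 3 non-targeting arrays, so no fold is given. Those that fell were MAFF, a small partner factor (-2.0, adjusted p = 0.00022), and SYVN1, a ubiquitin ligase of the endoplasmic reticulum (-0.97, SE 0.21, adjusted p = 0.0054). With the drug NGLY1, the enzyme that removes sugars from NFE2L1, rose (0.36, adjusted p = 0.0068), as did MAFG (0.28, adjusted p = 0.017), 33.3% of the axis, against 17% of all genes.

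PSMB8, an interferon-inducible catalytic subunit left out by the rule, had log2 fold changes of -0.25 (adjusted p = 0.058) with rosiglitazone and 0.00 (adjusted p = 0.99) with FABP4 shRNA, and PSMB9 had -0.19 (adjusted p = 0.39) and -0.35 (adjusted p = 0.13). Another 3 tested genes match the letters of the rule but encode no subunit or assembly factor and are counted nowhere above. PSMC3IP, a recombination factor, had -0.28 (adjusted p = 0.12) with rosiglitazone and 0.03 (adjusted p = 0.91) with FABP4 shRNA. PSME3IP1, which binds the PSME3 activator, had -0.44 (adjusted p = 0.0087) and 0.21 (adjusted p = 0.2), and the antisense RNA PSMD6-AS2, detected on 3 arrays, had -0.20 (adjusted p = 0.29) and 0.01 (adjusted p = 0.98).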

How the data were processed

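The authors deposited raw intensity values for 47323 probes on 12 Illumina arrays, which are linear bead brightness without background subtraction, and for each probe on each array a detection p-value, which moves in steps of 1 of 770 negative controls. They also deposited log2 intensity, quantile-normalized across the arrays, judged from the values. RNA was extracted, copied to biotin-labelled cRNA and hybridized, per the labels' protocols; scanner software was not stated in the labels.

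Raw intensities were processed with neqc in limma 3.58.1 (R 4.3.3; offset 16, quantile normalization, log2), probes with detection p below 0.05 on 3 or more arrays were kept (25176), and each gene was read from its brightest kept probe. Probes were named from the array annotation through gene IDs in RefSeq (GRCh38.p14, used for names and promoter sequence). All 12 arrays entered 1 linear model of the group means (lmFit and eBayes, 8 residual and 5.43 prior degrees of freedom), with Benjamini-Hochberg adjustment over 13293 genes. Errors are SD over 3 arrays or the model's SE. Precision is limited by how many arrays there are. The script was tested on simulated data, with 100 genes changed by a log2 of 0.3 and 100 by 1. Of these 0% and 99% were called. Far more genes were called in the real data, so these shares do not carry over to it. Of 14 members with several kept probes, 3 had a probe of the other sign under rosiglitazone (PSMC4, PSME1 and PSMG4) and 1 under FABP4 shRNA (PSMD4). Values per array are given for the catalytic subunits, PSMB10, PSME1, PSME2, PSMD4, PSMD14 and PSMG1. They are also given for the called members with the 4 largest changes in each direction of a comparison. Outside the members they are given for FABP4, POMP, NFE2L1, MAFF and SYVN1. The sequences were chosen after the values were seen. Raw intensities were the main input and the authors' log2 values an alternative. The members and lists were chosen with earlier results of these data known. Same-numbered arrays were not treated as pairs.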

Additional observations from a re-analysis of the deposited data

Results flagged for a closer look

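For 16 members the response to rosiglitazone in UM-UC9 differed from the response to FABP4 shRNA in UM-UC14 by the direct test of the difference (limma, adjusted p below 0.05). That is 41.0%, against 41.5% of all genes, so the total is at the background. Each value is the rosiglitazone change minus the FABP4 shRNA change on the log2 scale. Among the assembly factors it was -1.11 for PSMG3, -0.99 for PSMD9, -0.93 for PSMG4, -0.67 for PSMG1 and -0.67 for PSMD5. Among the activators it was -1.37 for PSME3 and -0.58 for PSME2. The regulatory particle held PSMD3 at -0.76, PSMD1 at -0.55, PSMD11 at -0.55 and PSMD12 at -0.52. The core rings held PSMB2 at -0.61, PSMA3 at -0.57, PSMB5 at -0.52 and PSMA6 at -0.37. PSMB10 was the 1 positive difference, at 0.44. PSMD3, PSMG1, PSMD12 and PSMA6 were called in the difference and in neither response alone.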

How the results depend on the processing

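Leaving out 1 array at a time gave, under rosiglitazone, 1 to 2 members higher and 4 to 4 lower, a core median of 0 to 0.05 and a regulatory particle median of -0.06 to 0.02. With FABP4 shRNA it gave 7 to 26 higher and 0 to 0 lower, with medians of 0.22 to 0.32 and 0.25 to 0.43. In the fits with 7 and 26 higher, 11.1% and 21.2% of all genes were higher. The difference of responses had 1 to 2 higher and 10 to 22 lower, with medians of -0.29 to -0.17 and -0.49 to -0.26. The cell lines had 7 to 9 higher and 13 to 20 lower, with medians of -0.44 to -0.26 and -0.19 to -0.10. For the comparisons other than FABP4 shRNA, the shares over all genes in these fits were not counted. Their member counts thus show only how stable the calls are. Median scaling left 0 members higher under rosiglitazone, 0 in the difference and 1 between the lines. Over all genes it left 40%, 33.1% and 39.5% of the calls in these comparisons higher, against 47.2%, 46% and 49% in the main fit. It moved the core and regulatory particle medians to 0.48 and 0.47 with FABP4 shRNA, -0.47 and -0.57 in the difference, and -0.59 and -0.38 between the lines. Array weights gave 5 higher and 9 lower under rosiglitazone and a core median of -0.44 between the lines. Calls over all genes under rosiglitazone also grew with array weights, to 6225 (46.3% of them higher), against 4791 in the main fit. The mean of all kept probes gave a rosiglitazone core median of 0.11. Fitting only the arrays of the contrast left 5 higher with FABP4 shRNA, where calls over all genes were 1776, against 3502 in the main fit. The difference had 2 members higher without background correction, with an offset of 50, with the authors' values and with probes detected on all 12 arrays. Non-targeting replicate 1 as the only control gave a core median of 0.12 with FABP4 shRNA and medians of -0.06 and -0.11 in the difference. Between the lines it gave a regulatory particle median of 0.06. In that fit PSME2 between the lines turned to 0.36. The cause of these moves was not tested. Over all settings 118 of 144 counts and 126 of 144 medians stayed near their value, and of 1440 single-gene results 1324 kept their call.

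With the replicate number as a block, 2 members were higher and 5 lower under rosiglitazone, 17 higher and 0 lower with FABP4 shRNA, 1 higher and 15 lower in the difference, and 8 higher and 17 lower between the lines. Over all genes the block called 4706, 3369, 5411 and 8944 in these comparisons, against 4791, 3502, 5522 and 9011 without it. Deviations of same-numbered arrays correlated at -0.01, -0.04 and -0.03 in UM-UC9 and at 0.03, 0.15 and 0.02 in UM-UC14, so the numbers were not taken as pairs. A block for slide was not run because the files name no slides. The number of arrays limits the precision throughout.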
